A study of Rattus norvegicus with 24 samples.

Results

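The smooth muscle contractile genes are 10 genes chosen by name: Acta2, Actg2, Myh11, Myl9, Tagln, Cnn1, Smtn, Lmod1, Des and Myocd. All 10 were among the 30667 genes of the deposited table, and the filter on low values removed none of these genes. They were followed over 24 rat lung samples from a study of lung cancer induced with smoky coal. A sample is named by 1 of 4 letters, which are A, B, C and G, and by a number up to 6. Each letter therefore has 6 samples, and each number has 4, 1 per letter. The exposure label, smoky coal, is the same for all 24. Smoky coal is a bituminous coal that releases polycyclic aromatic hydrocarbons when burned. Dose, time, strain, age, a control group and the meaning of letters and numbers are not given in the sources used here. Nothing says whether the samples came from separate animals, so the p-values measure the spread between these samples.

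Smooth muscle surrounds the conducting airways and the arteries and veins of the lung, and its tone sets the calibre of both. It contracts when a rise in calcium switches on myosin light chain kinase, which phosphorylates the regulatory light chain and lets smooth muscle myosin pull on actin filaments. The contractile genes are switched on together by serum response factor, which binds a DNA element called the CArG box, and by its coactivator myocardin. Acta2 is also made by myofibroblasts and pericytes, and Des by all kinds of muscle.

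The values are normalized read counts per gene, and their sum per sample lay between 61717516 and 66007148. Depth before normalization is unknown, so no counting interval is given. Levels are compared between samples for a gene and never between genes, since no transcript length was used. The submitters' processing notes name STAR and the mouse build GRCm38, with no role or order. How well rat reads of each gene match that build, and how reads shared by near-identical actins (Acta2, Actg2, Acta1, Actc1) were counted, is not given in the sources used here. The tissue label was checked on lung markers: all 7 genes of the alveolar epithelium list were above 0 in each of the 24 samples, and surfactant gene Sftpc averaged 723619 normalized read counts.

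Of the 10 genes, 5 had a promoter in the RefSeq table of the rat build GRCr8, from 250 bases before to 50 bases after the gene start: Acta2, Actg2, Cnn1, Des and Smtn. The CArG box was searched on both strands, once with all 6 core bases A or T and once with at most 1 core base G or C. The strict form was in 0 of the 5 windows and in 1.64% of all 33469 promoters of that length. The looser form was in 1 of the 5, that of Acta2, and in 9.42% of all promoters. The Acta2 window is shown because Acta2 followed the other members most closely. It lies on the minus strand at chr1:241172454-241172753, and the capitals mark its 2 looser matches, which start 134 and 84 bases before the gene start.
Acta2: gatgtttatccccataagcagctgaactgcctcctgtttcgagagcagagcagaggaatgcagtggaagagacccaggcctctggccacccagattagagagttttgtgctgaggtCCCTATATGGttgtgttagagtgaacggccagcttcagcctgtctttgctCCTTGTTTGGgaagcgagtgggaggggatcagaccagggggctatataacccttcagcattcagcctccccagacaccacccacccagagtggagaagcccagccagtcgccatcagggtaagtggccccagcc

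The first question was whether the level of these genes followed the letter. None of the 10 differed across the 4 letters, and each letter held samples from low to high. Acta2, the smooth muscle alpha actin of the thin filament, had 3877, 5959 and 9611 normalized read counts in A (lowest, median and highest of 6 samples). It had 3537, 6313 and 9595 in B, 3542, 6127 and 11313 in C, and 4799, 6417 and 11393 in G. All 4 ranges shared the stretch from 4799 to 9595. Myh11, the smooth muscle myosin heavy chain, averaged 9226 ± 2388 normalized read counts for A, 9732 ± 2192 for B, 10238 ± 2875 for C and 10419 ± 2972 for G (SD, n = 6). These means also differed by less than 1 SD.

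Across the letters, 0 of the 10 genes passed a limma F test with Benjamini-Hochberg adjustment over all genes, and 0 had an unadjusted p under 0.05. Of all genes, 0.00652% were called in that test (2 of 30667). In the 6 pairs of letters the 10 genes gave 60 differences and 0 calls, where 0% of all genes were called in the 3 pairs among A, B and C. Of all genes, 0.00652% were called in G against A, 0.00326% in G against B and 0.00652% in G against C. The differences lay between -0.28 and 0.36 on the log2(value + 1) scale, and all 60 of the 95% intervals contained 0, with outer bounds of -0.74 and 0.97. These intervals come from the fit without the sample number, so they also hold the spread between numbers. They leave room for differences of up to nearly that size.

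The 3 comparisons with G shared the 6 G samples and leaned the same way. The median log2 difference of the 10 genes was 0.16 in G against A, 0.13 in G against B and 0.14 in G against C, where the median of all genes was -0.01, 0.00 and 0.00. In G the fitted level was higher for 9 of 10 genes against A, 10 against B and 10 against C, and among all genes 48.8%, 50.1% and 49.9% were higher. Because the members vary together between samples (below), these 10 signs are not 10 separate observations. The smallest adjusted p among the 60 was 0.801 (limma, all genes), and 0.352 with the sample number as a block. The block left 0 of the 10 genes called, where 0.0391% of all genes were called across letters, 1.27% in G against A, 0.00652% in G against B and 0.0359% in G against C.

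The second question was whether samples of equal number shared a level, and 9 of the 10 genes differed by number. The number accounted for 35.2% to 71.1% of the variance of a member's log2 value, with a median of 60.2%, against 37.1% for the median gene of the table. The letter accounted for 1.29% to 8.37%, against 9.45% for the median gene. With no difference between groups, degrees of freedom alone give an expected share of 13.0% for the letter and 21.7% for the number. In a limma F test across numbers with the letter as a covariate, all but Des passed (9 of 10), where 31.5% of all genes passed. Among genes with a mean of at least 100 normalized read counts, which includes all 10, 52.5% passed. Differences between numbers were thus common in this table. In bulk tissue, fewer smooth muscle cells and less RNA of these genes per cell cannot be told apart.

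Number 1 had the highest mean of the 6 numbers for 9 of the 10 genes. For Des the means of number 4 (6546 normalized read counts) and number 2 (5335) exceeded that of number 1 (4816). The number 4 mean rested on A4 at 12254, against 3665 to 5572 in B4, C4 and G4. A4 held the highest single value of Cnn1, Des and Lmod1. In number 1 against the mean of the other numbers, 8 of 10 genes were called higher and 0 lower, where 5.62% of all genes were called higher, and 9.78% of those with a mean of at least 100. The median log2 difference of the 10 genes was 0.61, against -0.02 for all genes. In number 6, 6 of 10 genes were called lower and 0 higher, where 4.02% of all genes were called lower and 7.07% of those with a mean of at least 100, with a median of -0.50 against 0.00. The calls in number 6 rested on B6 and C6: without B6, 0 of 10 were called, and without C6, 1 of 10. The calls in number 1 fell to 6 of 10 without B1 or C1. Leaving out 1 sample gave 747 to 2999 calls among all genes in number 6, against 2494 with all samples. In number 1 it gave 1917 to 4100 calls among all genes, against 3638. These contrasts share samples. A check without the 4 samples numbered 1 was added after the values were seen. In it 1 of the 10 genes was called in number 6, and 3 of 10 across the remaining numbers (Acta2, Actg2 and Cnn1). The share of all genes called in that check is not given here. A loss particular to the members therefore cannot be told from a general one. For numbers 2, 3, 4 and 5 no member was called, where 21.8%, 4.98%, 4.74% and 1.97% of all genes were. In number 2 the calls of members were 0 to 2 without 1 sample and 3 without A4 and B4.

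**Figure D1:**
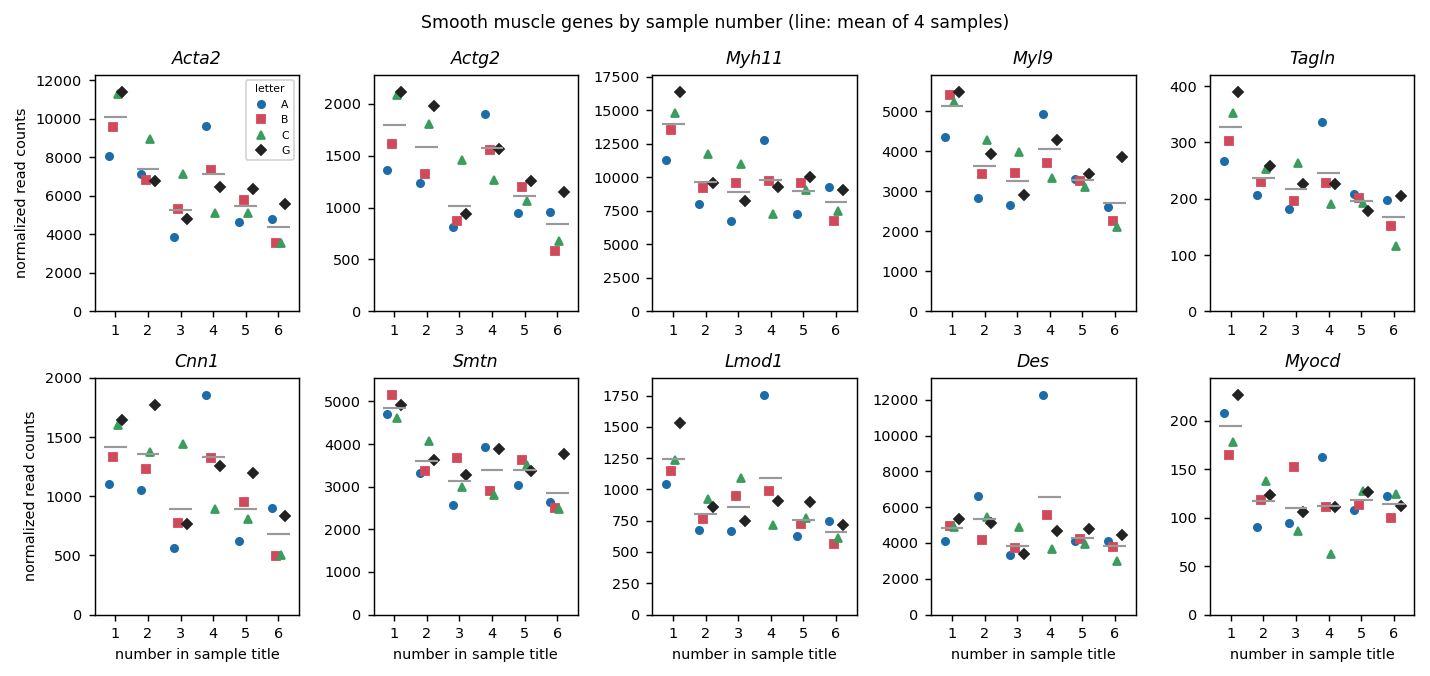
Normalized read counts (y axis, from 0) of the 10 genes in 24 samples, by the number in the sample title (x axis), with a symbol per letter and a grey line at the mean of the 4 samples of a number. For Smtn and Myocd the samples numbered 1 lie above all 20 others, and how many of all genes do so was not counted. A4 stands high in several panels, most in that of Des.

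Among the actins of the thin filament, Acta2 had 8058 normalized read counts in A1, 9595 in B1, 11313 in C1 and 11393 in G1. In the samples numbered 6 it had 4807 in A6, 3537 in B6, 3542 in C6 and 5569 in G6. Every sample numbered 1 was above every sample numbered 6. Of the 20 samples with other numbers only A4 (9611) and C2 (8939) reached the lowest number 1 sample. For this and the genes below, how many of all genes separate in such a way was not counted. The log2 difference of Acta2 in number 1 was 0.80 (SE 0.15, limma adjusted p = 0.00141), and in number 6 it was -0.67 (SE 0.15, adjusted p = 0.00978).

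Actg2, the gamma actin best known from the smooth muscle of gut and other viscera, had 1361 normalized read counts in A1, 1616 in B1, 2085 in C1 and 2114 in G1. It had 959 in A6, 577 in B6, 674 in C6 and 1153 in G6. The groups again did not overlap, but 6 of the 20 samples with other numbers reached the lowest number 1 sample. Number 1 was higher by 0.60 (SE 0.15, limma adjusted p = 0.0120), and number 6 was lower by a log2 difference of -0.75 (SE 0.15, adjusted p = 0.00455). The call in number 1 was lost without B1 (adjusted p = 0.0543) or without C1 (adjusted p = 0.0761).

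In the thick filament, Myh11 had 11279 normalized read counts in A1, 13562 in B1, 14797 in C1 and 16365 in G1. Only A4 (12800) and C2 (11767) of the other 20 samples reached that range. Its log2 difference in number 1 was 0.63 (SE 0.13, limma adjusted p = 0.00281). The samples numbered 6, at 6723 to 9285 normalized read counts, overlapped those of numbers 2 to 5, with B6 the lowest of all 24, and the difference of -0.31 did not pass (adjusted p = 0.163). The F test of Myh11 across numbers, at an adjusted p of 0.0137, rose to 0.0553 without C1 and 0.0702 without G1.

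Myl9 encodes the regulatory light chain whose phosphorylation starts contraction. It had 4362 normalized read counts in A1, 5400 in B1, 5234 in C1 and 5477 in G1, and only A4 (4935) of the other 20 samples reached that range. The samples numbered 6 were at 2601, 2252, 2098 and 3854 in A, B, C and G, so G6 stood apart from the other 3. Myl9 was higher in number 1 by 0.62 (SE 0.12, limma adjusted p = 0.00201) and lower in number 6, with a log2 difference of -0.53 (adjusted p = 0.0117).

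Tagln and Cnn1 encode actin-binding proteins of the calponin family. Tagln, which encodes transgelin (SM22), had 267 normalized read counts in A1, 302 in B1, 352 in C1 and 389 in G1, against 198, 151, 116 and 204 in A6, B6, C6 and G6. Its log2 difference was 0.64 in number 1 (SE 0.14, limma adjusted p = 0.00442) and -0.54 in number 6 (adjusted p = 0.0214). Cnn1, which encodes calponin, a protein that holds back the myosin motor on actin, had 1103, 1329, 1605 and 1644 normalized read counts in A1, B1, C1 and G1. Its highest samples were A4 (1854) and G2 (1770), and 8 of the 20 samples with other numbers reached the lowest number 1 sample. The difference of Cnn1 in number 1, 0.54, did not pass (SE 0.20, adjusted p = 0.0952), and it passed without A4 (adjusted p = 0.0375) or without C3 (adjusted p = 0.0249). In number 6 Cnn1 was lower, with a log2 difference of -0.76 (SE 0.20, adjusted p = 0.0254).

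Smtn, which encodes the actin-associated protein smoothelin, gave the cleanest split. It had 4711 normalized read counts in A1, 5146 in B1, 4608 in C1 and 4913 in G1, and the highest of the 20 other samples had 4066 (C2). The log2 difference in number 1 was 0.58 (SE 0.10, limma adjusted p = 0.000482). In number 6 it was -0.36 (adjusted p = 0.0231), with A6, B6 and C6 at 2484 to 2643 normalized read counts and G6 at 3759. Lmod1 encodes leiomodin, which nucleates actin filaments in smooth muscle. It had 1041, 1149, 1233 and 1534 normalized read counts in A1, B1, C1 and G1, a log2 difference of 0.60 (SE 0.16, adjusted p = 0.0181). That call was lost without B1, C1 or G1 (adjusted p = 0.0601, 0.0650 and 0.107). Its F test across numbers, at an adjusted p of 0.0198, rose to 0.0623 without G1. The single highest Lmod1 value, 1752, was in A4.

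Myocd, the coactivator myocardin, had its 4 highest values in number 1. It had 208 normalized read counts in A1, 165 in B1, 178 in C1 and 226 in G1, and at most 163 in the other 20 samples. The means of numbers 2 to 6 lay between 110 and 119. Its log2 difference was 0.78 in number 1 (SE 0.17, limma adjusted p = 0.00468) and -0.13 in number 6 (adjusted p = 0.741). Without the samples numbered 1, Myocd no longer differed across numbers (adjusted p = 0.964), and its F test, at 0.0306 with all samples, was also lost without A1, C1 or G1 alone (0.117, 0.0960 and 0.131).

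**Figure D2:**
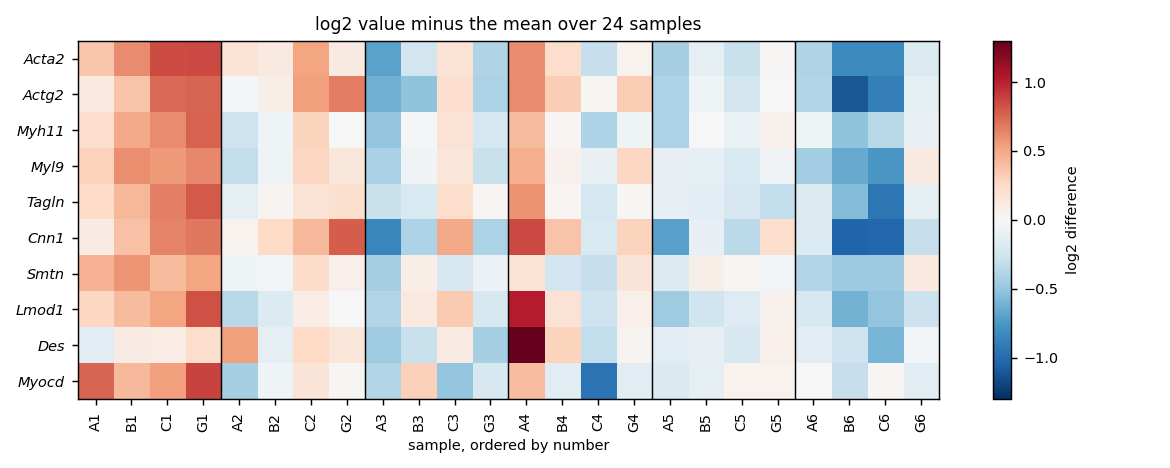
Log2(value + 1) of each gene (rows) minus its mean over 24 samples, with samples (columns) ordered by number; red is higher and blue lower. The columns of number 1 are red in all rows but Des, which is pale there, though Cnn1 and Actg2 are also pale in A1. B6 and C6 are blue in most rows. A4 is red in every row, palest for Smtn.

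Des was the exception. It encodes desmin, the intermediate filament protein that ties contractile units together in smooth, cardiac and skeletal muscle. It had 4119 normalized read counts in A1, 4920 in B1, 4891 in C1 and 5335 in G1, inside the range of the other samples. The log2 difference in number 1 was 0.09 (SE 0.18, limma adjusted p = 0.841), and the F test across numbers did not pass (adjusted p = 0.157). It did pass without C4 (adjusted p = 0.0400). The highest Des values were 12254 in A4, 6600 in A2 and 5572 in B4.

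Most skeletal muscle markers were highest in A4 and B4, but not all. Tnnc2 had 1.05 normalized read counts in B4 and 5.93 in A2, and Pvalb had 25.9 in A4 and 30.2 in G1. Most cardiac markers were highest in A4 and followed another order of samples after it. Myl2 was highest in B4 (779 normalized read counts, against 199 in A4). Acta1, the skeletal muscle actin, had 41069 normalized read counts in A4, 11389 in B4 and 500 to 2119 in the other 22 samples, with A2 the highest of these. The skeletal list of 13 genes summed to 97483 in its highest number 4 sample and to at most 3833 in any sample of the other numbers. The cardiac actin Actc1 had 19416 normalized read counts in A4, 2012 in B4 and 276 to 5979 in the others. The cardiac myosin Myh6 had 18330, 3452 and 2.01 to 9136. The highest of these others was G5 for both, where Des stood at 4766, and A2 had 1044 for Actc1 and 900 for Myh6. The 12 cardiac genes summed to 1808 to 11324 in number 1, within the range of the other numbers. Across numbers 0 of 12 were called, where 31.5% of all genes were. Their median log2 difference ran from -1.97 in number 3 to 1.38 in number 4, so the lack of calls does not show equal levels. No gene of the skeletal or cardiac list was at 0 in all 24 samples. The squamous keratin Krt13 also had 6899 in A4 against at most 78.6 in the 22 others. On the log2 scale Pearson's r of Des with Acta1 was 0.82 over 24 samples and 0.69 without A4 and B4. With Myh6 it was 0.50 and 0.37. These correlations were not calculated for the other members. The part of striated muscle RNA in the Des values was not tested. Without A4 and B4, 9 of 10 members passed across numbers. In that fit 9 of 10 were higher in number 1, with Cnn1 added (0.64, limma adjusted p = 0.0266). The share of all genes called there is not given here.

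**Figure D3:**
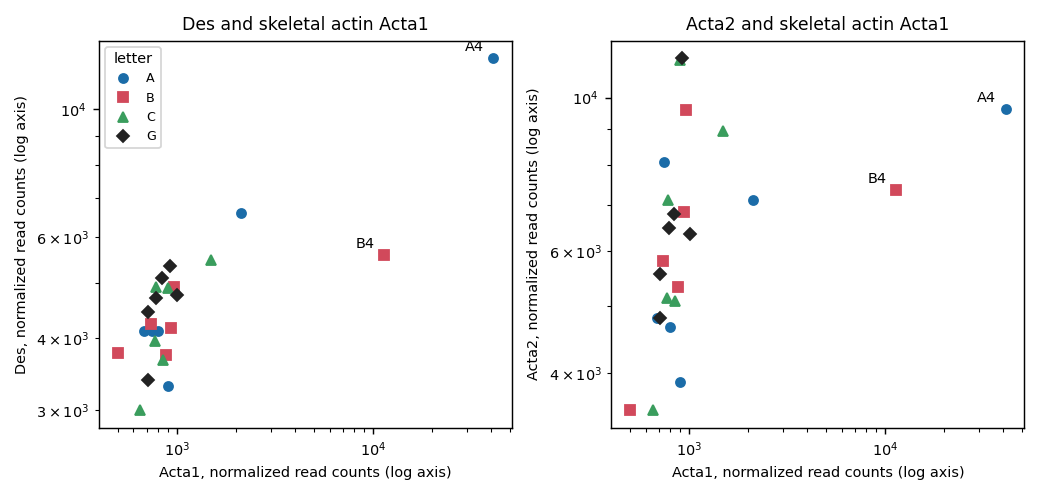
Normalized read counts of Des (left) and Acta2 (right) against the skeletal actin Acta1, all on log axes, with a point per sample and a symbol per letter. A4 is the highest point for Des at 12254; for Acta2, A4 (9611) lies below C1 and G1.

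The third question was how closely the members followed each other from sample to sample. Over 24 samples, Pearson's r of the 45 pairs of members ranged from 0.28 to 0.96 with a median of 0.81, and Spearman's rho from 0.27 to 0.96 with a median of 0.79. In a permutation test with 100000 arrangements and adjustment over the 45 pairs, 44 pairs passed for r and 44 for rho. The exception was Des with Myocd (r = 0.28, adjusted p = 0.174; rho = 0.27, adjusted p = 0.209). Samples of equal number are not independent, so these p-values may be too small. The closest pair was Cnn1 with Actg2 (r = 0.96, adjusted p = 1.96e-05; rho = 0.96, adjusted p = 2.14e-05). Its unadjusted p of 1e-05 is the smallest that 100000 arrangements can give.

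Without the 2 samples farthest from the median the r of all 45 pairs lay between 0.35 and 0.94. With the mean of each letter removed the median was 0.81. With the mean of each number removed the r values lay between 0.28 and 0.93, with a median of 0.73, so the members also varied together among samples of 1 number. For Acta2 with Myh11, r was 0.92 over all samples and 0.93 with number means removed. The 8 genes other than Des and Myocd formed the closest group, with r from 0.66 to 0.96 in 28 pairs. Against the mean of the other 9, Acta2 had the highest r (0.97) and Myocd (0.63) and Des (0.64) the lowest. Of the deviations of 1 member from the mean of the other 9 in 1 sample, the largest were Des in A4 (0.85 on the log2 scale), Myocd in C4 (-0.73) and Myocd in C6 (0.72).

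**Figure D4:**
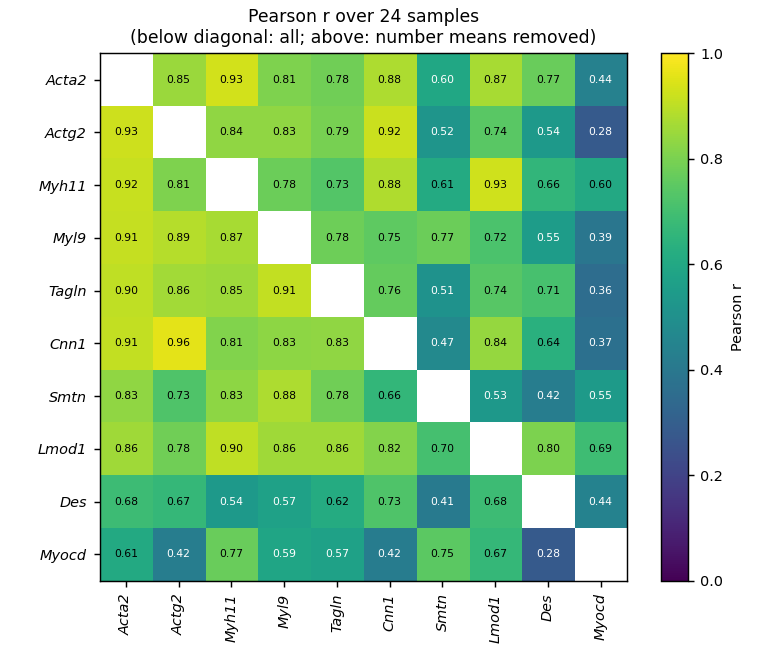
Pearson's r between the log2 values of each pair of genes over 24 samples, below the diagonal from all values and above it with the mean of each number removed; colour runs from 0 to 1. The rows of Des and Myocd hold the lowest values, and Cnn1 with Actg2 has the highest value, 0.96.

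Compared with the genes that had a mean of at least 100 normalized read counts, the members were variable. The SD of their log2 values over 24 samples ran from 0.30 (Smtn) to 0.56 (Cnn1), which lies at the percentiles 79.4 and 95.4 of the 15914 genes with a mean of at least 100. The highest sample exceeded the lowest by 2.07-fold for Smtn and by 4.08-fold for Des, the ends of the range over the 10 genes.

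The wider machinery of contraction was read from 4 lists of 59 genes. Across letters and their pairs, 0 of the 59 were called. Across numbers, 9 of 13 genes of the contraction switch passed, as did 13 of 17 of thin filaments and anchoring, 13 of 17 channels and receptors and 10 of 12 transcriptional regulators, where 31.5% of all genes passed and 52.5% of those with a mean of at least 100. The switch sets light chain phosphorylation. Of its 13 genes, 4 were higher in number 1 and 0 lower, where 5.62% of all genes were called higher. The median log2 difference of the 13 was 0.09. The 4 include Mylk, the light chain kinase (0.34, limma adjusted p = 0.000818), and Prkg1, a kinase of the relaxing cyclic GMP pathway (0.42, adjusted p = 0.000682). Ppp1cb, the catalytic subunit of myosin phosphatase (0.06, limma adjusted p = 0.468), did not pass in number 1. In number 2, where no smooth muscle gene of the 10 was called, 8 of the 13 were lower and 0 higher, with a median of -0.16. Mylk (-0.39, adjusted p = 0.000109), Prkg1 (-0.34, adjusted p = 0.00163) and Ppp1cb (-0.27, adjusted p = 0.000123) were among these 8. Of all genes, 10.3% were called lower in number 2 and 11.5% higher, or 17.8% and 18.6% of those with a mean of at least 100.

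Of 17 genes of thin filaments and their anchoring, 9 were higher in number 1 and 0 lower, with a median of 0.24. Among all genes, 5.62% were called higher in number 1. Cald1, the actin regulator caldesmon, differed by 0.29 (limma adjusted p = 0.00281), Vcl, the adhesion protein vinculin, by 0.31 (adjusted p = 0.000763), and Flna, the actin crosslinker filamin A, by 0.25 (adjusted p = 0.0238). Synm, an intermediate filament protein that partners desmin, was not called in number 1 (0.02, adjusted p = 0.906) and was higher in number 6 (0.31, adjusted p = 0.00946), where 4.11% of all genes were. In number 2, 2 of the 17 were higher and 5 lower, where 11.5% and 10.3% of all genes were. Of 17 channels and receptors, 7 were higher in number 1 and 0 lower, with a median of 0.32. Agtr1a, an angiotensin II receptor, differed by 0.49 (adjusted p = 1.79e-05) and Gucy1b1, a subunit of the nitric oxide receptor guanylate cyclase, by 0.55 (adjusted p = 7.44e-06). In number 2, 9 of these 17 were lower and 0 higher, with a median of -0.28, Agtr1a (-0.35, adjusted p = 0.000215) and Gucy1b1 (-0.28, adjusted p = 0.00221) among them.

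Of the 12 transcriptional regulators, 1 was called in number 1, Mrtfb, a relative of myocardin (0.16, limma adjusted p = 0.0230). Hey2, a target of Notch signalling, was higher in number 6 (0.75, adjusted p = 0.000220), where 6 of the 10 members were lower. In number 2, 6 of the 12 regulators were lower and 0 higher, with a median of -0.23, Mrtfb (-0.33, adjusted p = 2.67e-05) and Hey2 (-0.46, adjusted p = 0.00267) among them. For all genes the share called in number 1 was 5.62% higher and 6.25% lower, and in number 2 it was 11.5% higher and 10.3% lower.

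Among the 18 paralogs and related genes, which include both striated muscle and nonmuscle forms, 4 were higher in number 1, where 5.62% of all genes were. They include the nonmuscle myosin Myh10 (0.42, limma adjusted p = 0.00175) and Cnn3, a calponin found in many cell types (0.28, adjusted p = 0.000424). The cytoplasmic actin Actb (0.05, adjusted p = 0.762) and the nonmuscle myosin Myh9 (0.10, adjusted p = 0.231) did not pass.

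**Figure D5:**
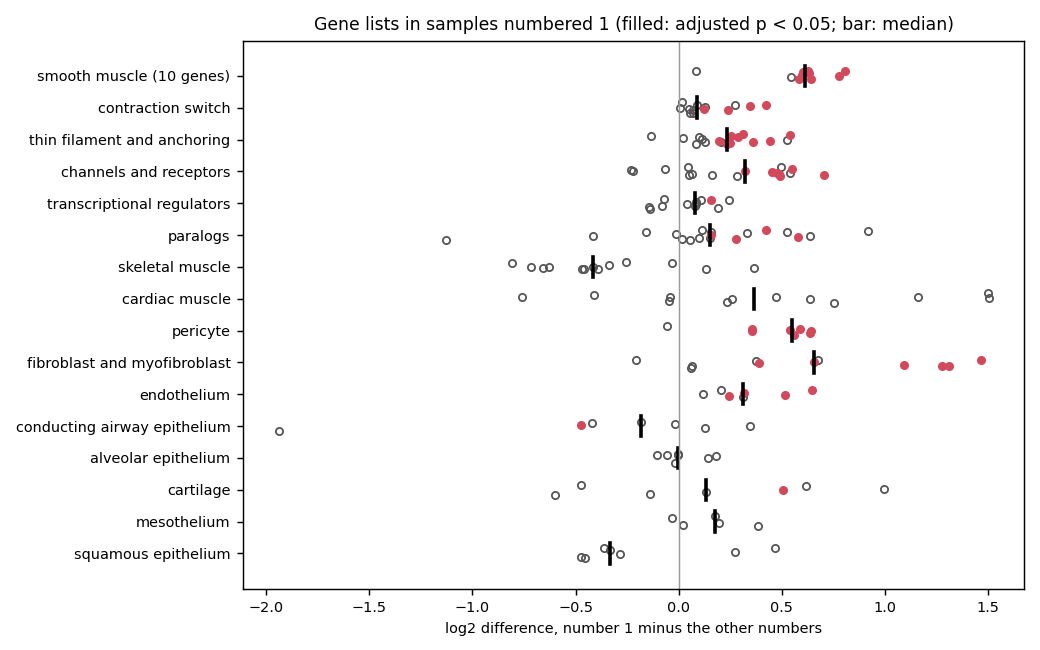
Log2 difference of samples numbered 1 from the mean of the other numbers (x axis) for each gene of 16 lists (rows); filled points passed the limma test at an adjusted p under 0.05 and black bars are medians. The smooth muscle genes have a median of 0.61 and the fibroblast list one of 0.66, while the alveolar list lies at -0.00.

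Many markers of other mesenchymal and vascular cells, though not all, were higher in number 1 as well. Of 8 pericyte genes, 7 were higher, where 5.62% of all genes were and 9.78% of those with a mean of at least 100. The list had a median of 0.55 and summed to 49931 to 52668 normalized read counts, above the 27855 to 41337 of the other numbers. Notch3, a receptor of vascular mural cells that arterial smooth muscle also makes, differed by 0.64 (limma adjusted p = 8.91e-06) and Pdgfrb, a growth factor receptor of the same cells, by 0.59 (adjusted p = 1.39e-05). Of 11 fibroblast and myofibroblast genes, 6 were higher in number 1 and 6 lower in number 6, where 4.02% of all genes were lower. In number 2, 7 of the 11 were higher and 1 lower, with a median of 0.73 against 0.66 in number 1, while none of the 10 smooth muscle genes was called there. Of all genes, 11.5% were called higher in number 2 and 10.3% lower, or 18.6% and 17.8% of those with a mean of at least 100. Col1a1, a chain of type I collagen, differed by 1.31 (adjusted p = 1.64e-06) in number 1 and by -1.02 (adjusted p = 9.93e-05) in number 6. Other genes of the list did not follow the collagens. Pdgfra had 8598 to 10562 normalized read counts in number 2 and at least 10995 in every other sample. In number 1 Pdgfra had 13294 to 16668 and Dcn 6877 to 8072, both within the range of the other samples.

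The fibroblast list summed to 533530 to 668497 normalized read counts in number 1, 469025 to 569560 in number 2 and 230957 to 330422 in number 6. Of 7 endothelial genes, 4 were higher in number 1, where 5.62% of all genes were. They include Emcn (0.64, limma adjusted p = 3.08e-07) and Cdh5 (0.52, adjusted p = 6.16e-05). In number 2, 6 of these 7 were lower and 0 higher, with a median of -0.34, where 10.3% of all genes were called lower. Of the pericyte genes, 2 of 8 were lower in number 2. The endothelial list summed to 315712 to 348635 in number 1 and to 179968 to 335756 in the others. Of 7 conducting airway genes, 0 were higher and 1 lower, the ciliated cell factor Foxj1 (-0.47, adjusted p = 0.0139). Of 7 alveolar genes 0 were called in number 1, where 5.62% of all genes were called higher and 6.25% lower. The cartilage list had 1 of 7 genes higher, the collagen gene Col11a2 (0.50, adjusted p = 0.00424), and 0 of 5 mesothelial and 0 of 7 squamous genes were called. The part of these cell types in the differences of the smooth muscle genes was not tested.

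The genes whose pattern was most like that of the members were sought among 15904 other genes with a mean of at least 100. The measure was Pearson's r with the mean of the 10 members' standardized log2 values over 24 samples. The 8 highest were Tgfb3 (0.87), Cdsn (0.87), Nes (0.85), Clec3b (0.85), Cd248 (0.85), Emp1 (0.85), Nsmf (0.85) and P3h3 (0.85), against a median of -0.01 over the 15904. Tgfb3 encodes a transforming growth factor beta, Nes the intermediate filament protein nestin, and Cd248 a surface protein of fibroblasts and pericytes. None of the 8 was in the lists described above. All 8 were higher in number 1, by 0.32 (Nsmf) to 0.81 (Nes). They were chosen for likeness to members that were high there, so this direction is no separate result. These values are a description, since the 24 samples share their numbers.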

How the data were processed

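Gene expression in rat lung was measured by Illumina sequencing of mRNA in 24 samples, per the labels' protocols. The authors deposited 1 table of signal values per gene. Low values lie near whole numbers and all samples have similar sums, so the values were read as normalized read counts. STAR and GRCm38, a mouse build, are named in the submitters' processing notes. The counting tool, annotation and normalization are not given in the sources used here. Of 30667 row names, 16143 (52.6%) matched a rat RefSeq symbol of GRCr8, including all 10 members, and 11528 had the form of mouse gene-model or clone names.

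Tests used the trend option of limma 3.58.1 under R 4.3.3, applied to log2(value + 1), for genes with a mean of at least 0.5, with Benjamini-Hochberg adjustment over all 30667 genes, two-sided, at 0.05. Differences are on that scale and are too small for genes of low level. One fit with 4 letter means gave an F test and 6 pairs. Another with number and letter gave an F test across numbers and each number against the mean of the other 5. Both were checked on simulated data with known changes. Correlations used scipy 1.17.1.

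Equal numbers were taken to pair samples only where all 6 correlations of deviations exceeded 0.1, which held in B against A (0.17 to 0.59) and C against B (0.13 to 0.60), from the data alone. No 2 libraries were identical. Members and lists were chosen with earlier results of these data known. Named genes are the members, up to 4 genes per list with the smallest p across numbers, up to 2 with the highest mean, and the 8 most alike. Alternatives covered pseudocount, filter, scaling, weights, block, letter term and left-out samples.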

Additional observations from a re-analysis of the deposited data

Results flagged for a closer look

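In groups of 6 samples of a letter or 4 samples of a number, 9 of 100 groups of member values had a highest or lowest sample set apart from the rest by a gap that is large for the range of the group, where chance gives about 5. G1 was set apart in letter G for 5 genes. Acta2 had 11393 normalized read counts in G1 and at most 6798 in the other G samples. Myh11 had 16365 against at most 10015, Myocd 226 against at most 127, Lmod1 1534 against at most 906, and Smtn 4913 against at most 3884. A4 was set apart in letter A for Des (12254 against at most 6600) and Lmod1 (1752 against at most 1041). Among samples numbered 2, Acta2 had 8939 in C2 and at most 7111 in the others. Among samples numbered 6, Smtn had 3759 in G6 and at most 2643 in the others. The members vary together, so flags of 1 sample are not separate events.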

How the results depend on the processing

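The 10 genes gave 0 calls across letters and in the pairs under each alternative run. Across numbers 9 of 10 passed in each alternative but 2 kinds. Leaving out 1 sample gave 6 to 10, where 8528 to 10210 of all genes were called, against 9653 with all samples. Leaving out the 4 samples numbered 1 gave 3. In number 1 the called members were 6 to 9 without 1 sample. In number 6 they were 0 to 7, with 0 without B6 and 1 without C6, and 1 without the samples numbered 1. In number 2 they were 0 to 2 without 1 sample, 3 without A4 and B4, and 1 without the samples numbered 1. Numbers do not pair the samples of the G contrasts by the rule used. With the number as a block, all genes called were 12 across letters, 391 in G against A, 2 in G against B and 11 in G against C, and 0 members; the block changed no call of a member. Quantile normalization, 75th percentile scaling, leaving out A4 and B4 and leaving out the samples numbered 1 each gave 1 gene across letters, where the fit to all samples gave 2. G against A gave 1 gene without A4 and B4, 4 without the samples numbered 1 and 5 in the fit to its 12 samples. G against B gave 3 with sample weights, and G against C gave 1 in the fit to its 12 samples. Without 1 sample these counts were 1 to 2 across letters, 1 to 4 in G against A, and 1 to 2 in G against B and in G against C. For numbers, sample weights gave 4271 calls in number 2, 1814 in number 5 and 4097 in number 6, against 6691, 604 and 2494. Number 4 gave 14 without A4 and B4 and 887 without the samples numbered 1, against 1454, and number 5 gave 374 without the latter. Without 1 sample, calls were 1917 to 4100 in number 1, 3542 to 7111 in number 2, 543 to 2049 in number 3, 383 to 1976 in number 4, 2 to 891 in number 5 and 747 to 2999 in number 6. Where fewer samples entered, the test had fewer to estimate the spread; otherwise the cause was not tested. The planned DESeq2 alternative was left out because the values are not raw counts. The check without number 1, and all alternatives for single numbers, were chosen after seeing the data.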
